A study of Mus musculus with 24 samples.

Results

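The strain by CpG interaction in CD11b+ conventional dendritic cells (cDC) was taken, for each gene, as the CpG response of cells from NOD mice minus the CpG response of cells from B6 mice. It rests on the 12 of the 24 arrays of the study that were made from CD11b+ cDC. These 12 arrays form 4 groups of 3: NOD mice given PBS, NOD mice given CpG-A, C57BL/6 (B6) mice given PBS and B6 mice given CpG-A. All mice were female and 8 to 10 weeks old, and the spleens were collected 12 h after the injection, digested with collagenase and sorted for CD11c+ cells of the CD11b+ type. The other 12 arrays hold CD8+ cDC of the same 4 conditions. No gene was chosen in advance of the comparison: all 11228 of 19938 genes that cleared a filter on low signal were tested. NOD and B6 are inbred strains that differ at many loci at once, so no difference between them can be tied to 1 locus here. Nothing in the labels states that the 3 arrays of a group stem from different mice. The p-values therefore measure only how far these samples spread, and part of that may be technical.

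CD11b+ cDC are antigen-presenting cells that prime mainly CD4 T cells and carry lectins such as DCIR2, the product of Clec4a4. CpG-A is an oligonucleotide recognised by Toll-like receptor 9, and in the spleen it is known above all for making plasmacytoid dendritic cells release type I interferon, to which other cells then respond. NOD mice develop autoimmune diabetes, while B6 mice do not. Dendritic cells that mature after such a signal lose part of their resting gene programme and gain cytokine, co-stimulatory and interferon-induced genes.

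Values are log2 expression values as deposited, differences are log2 differences, and ± marks the standard error of the limma fit where a difference is given. An interaction above 0 means that a gene ended higher in NOD, relative to its level under PBS, than it did in B6. "Called" means an adjusted p under 0.05 over all 11228 genes, and "rose" and "fell" are used for called changes. Each CD11b+ array correlated with the other arrays of its group at a mean r between 0.981 and 0.986. Sorted cells are a bulk sample, so fewer cells of a type and less RNA per cell cannot be told apart.

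The labelled cell type was checked against its markers before the comparison was read. Sirpa, a defining surface receptor of this subset, lay between 11.2 and 11.3 in B6 under PBS and between 11.2 and 11.5 in NOD under PBS. After CpG it read 10.29, 10.24 and 10.54 in B6 and 11.01, 11.16 and 11.21 in NOD, so the groups did not overlap there, and its interaction did not pass (0.62, adjusted p = 0.196). Zbtb46, a transcription factor of cDC, lay between 7.60 and 7.95 on all 12 arrays, and its interaction did not pass (-0.05, adjusted p = 0.912). Cd8a, a marker of CD8+ cDC, read 6.47, 7.10 and 7.31 under PBS and 8.45, 7.87 and 8.81 after CpG in B6. In NOD it read 5.04, 5.14 and 6.15 under PBS and 6.99, 6.23 and 6.48 after CpG. Its interaction did not pass (-0.30, adjusted p = 0.737). In B6 after CpG Itgam, the gene of CD11b, read lower than Cd8a on each array, at 6.61, 7.50 and 6.94. Levels of different probe sets do not rank transcripts by abundance. Xcr1 and Clec9a, also markers of CD8+ cDC, moved opposite to Cd8a in B6. Xcr1 read 7.31, 6.99 and 7.15 under PBS and 5.95, 5.98 and 6.31 after CpG. Clec9a read 8.68, 8.57 and 8.90, then 6.99, 7.30 and 7.49. Of the 23 tested CD8+ cDC markers 4 rose and 12 fell in B6 after CpG, against 15.9% and 23% of all genes. The part of CD8+ cells in this group was not tested. Natural killer (NK) cell markers moved with the groups. Their summed linear signal over the 29 markers on the array ran from 7029 to 7941 in B6 under PBS, from 12279 to 22107 in B6 after CpG, from 6601 to 7101 in NOD under PBS and from 6031 to 6524 in NOD after CpG. The number of these markers above the array median on all 3 arrays of a group was 14, 23, 9 and 10 in the same order. The receptor genes Klra5 and Klrc3 stayed below the median on all arrays of all 4 groups. Among the B6 arrays after CpG, replicate 2 carried the highest NK signal. The part of these NK transcripts in the results below was not tested. This holds for all genes below that were highest in B6 after CpG, cytokine, maturation and apoptosis genes included, and for those lowest there.

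**Figure D1:**
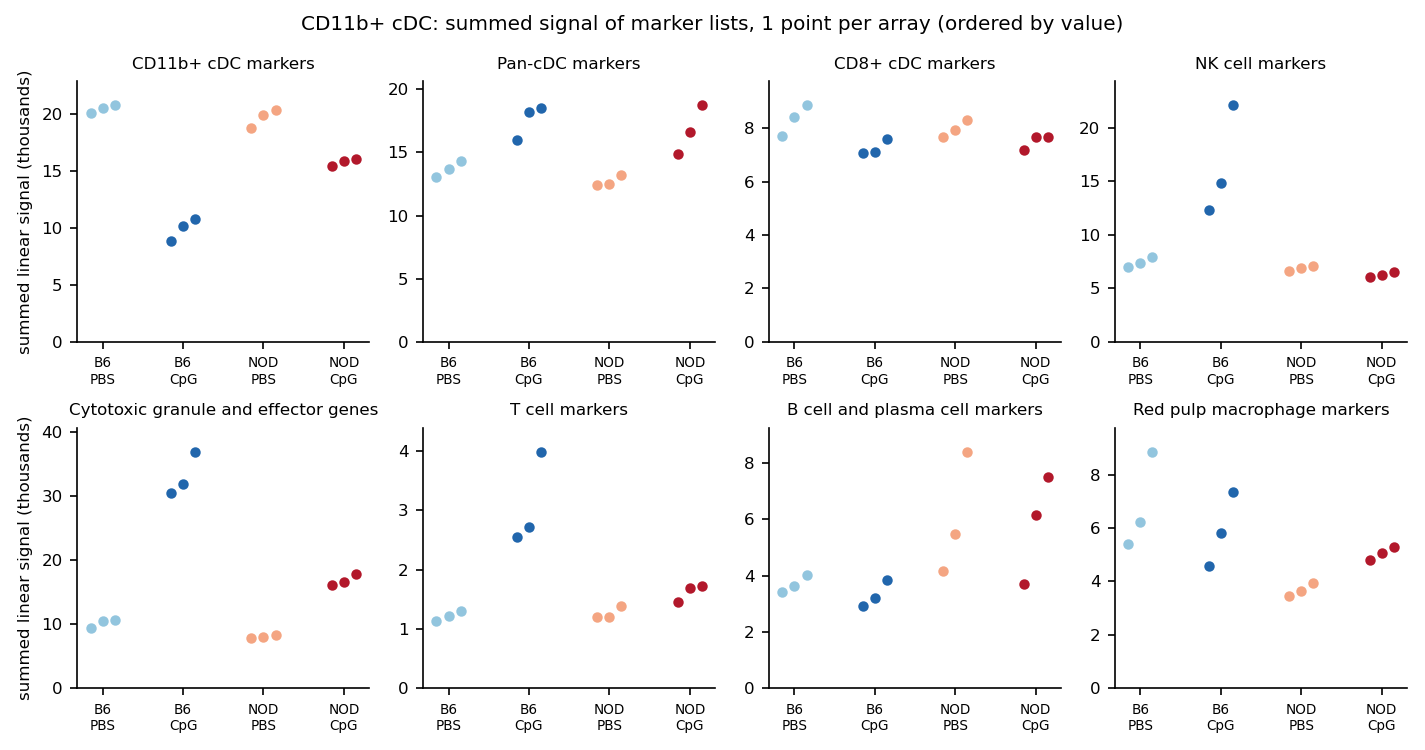
Summed linear signal of 8 marker lists on the 12 CD11b+ cDC arrays (vertical axis, linear signal divided by 1000; 1 point per array, ordered by value within a group; horizontal axis, the 4 groups). NK markers stand between 12279 and 22107 in B6 after CpG and between 6031 and 7941 in the other 3 groups, and CD11b+ cDC markers stand between 8865 and 10776 in B6 after CpG and between 15456 and 20817 elsewhere.

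Across the 11228 genes the interaction was called for 492, or 4.38% of them: 270 above 0 (2.4%) and 222 below 0 (1.98%). Most of these genes had changed after CpG in B6 and changed less in NOD. Of the 270 genes above 0, 241 had fallen in B6, and the median change was -1.01 in B6 and -0.14 in NOD. Of the 222 genes below 0, 214 had risen in B6, and the median change was 1.44 in B6 and 0.20 in NOD. The change in NOD was the smaller of both in 235 of 270 and in 207 of 222. The balance of both sides turned in some fits. It was 195 above and 206 below without the filter, 143 and 173 without replicate 1 of B6 under PBS, 162 and 175 without replicate 3 of that group, 143 and 171 without replicate 1 of B6 after CpG, 180 and 187 without replicate 2 of NOD under PBS, and 139 and 158 without replicate 2 of NOD after CpG. The number above 0 was 171 without replicate 2 of B6 after CpG and 178 without replicate 3 of NOD under PBS, with 169 and 158 below. In total 316 genes were called without replicate 1 of B6 under PBS, 314 without replicate 1 of B6 after CpG and 297 without replicate 2 of NOD after CpG.

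The same contrast shows in the 2 responses themselves. In B6 4364 genes were called after CpG (38.9%), 1782 higher and 2582 lower, whereas in NOD 1732 were called (15.4%), 1089 higher and 643 lower. Leaving out replicate 1 of NOD after CpG gave 818 higher and 321 lower in NOD, and centring each array on its median gave 1117 higher and 391 lower. The standard deviation of the response over all genes was 0.66 in B6 and 0.47 in NOD, and the responses correlated across genes at r = 0.80, a description over 11228 genes that are not independent replicates. The median interaction over all genes was 0.05.

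Under PBS the strains did not differ, by the test, at most of these genes. Of the 270 genes above 0, 203 did not differ under PBS by the same criterion and were higher in NOD after CpG, and of the 222 below 0, 190 did not differ under PBS and were lower in NOD after CpG. A further 25 genes above 0 were lower in NOD under PBS and did not differ after CpG, among them Ifi207, Oasl2 and Slfn5, described below. Over all genes NOD and B6 differed at 628 genes under PBS (5.59%; 2.41% higher and 3.18% lower in NOD) and at 2600 after CpG (23.2%; 13.9% higher and 9.22% lower).

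**Figure D2:**
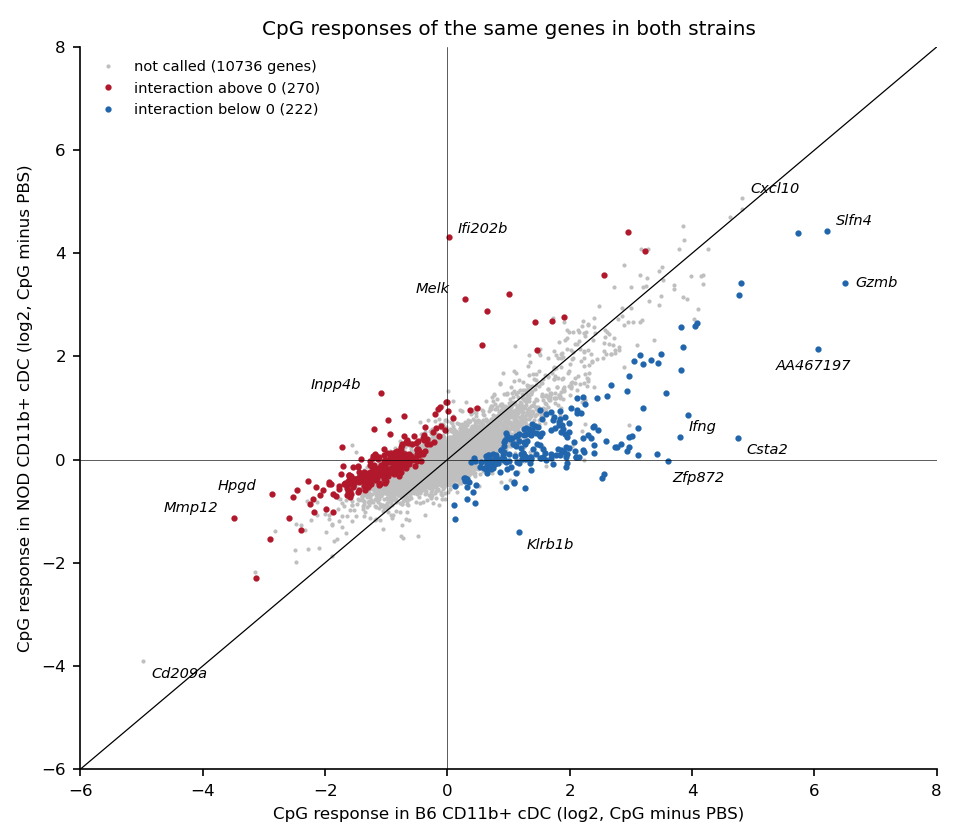
CpG response of each tested gene in B6 (horizontal axis) and in NOD (vertical axis) CD11b+ cDC, both as log2 CpG minus PBS, with the diagonal marking equal responses; the 270 genes with a called interaction above 0 are red, the 222 below 0 are blue and the rest grey. Called genes lie mostly where B6 changed and NOD stayed near 0, and Ifi202b stands at a response of 0.03 in B6 and 4.32 in NOD.

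Csta2, a member of the stefin family of cysteine protease inhibitors, had the lowest measured interaction. Its values were 3.04, 3.34 and 3.01 under PBS and 7.66, 8.04 and 7.94 after CpG in B6, against 3.04, 2.88 and 2.88 under PBS and 3.61, 3.10 and 3.37 after CpG in NOD. The B6 arrays after CpG stood above all others with no overlap, and the interaction was -4.33 ± 0.31 (adjusted p = 1.68e-08). In the other 3 groups its signal lay below the array medians of 5.79 to 5.87, with no detection call to show a level above background, so the size of this difference and its rank rest on low signals. Stefin genes are near-identical copies, so their probes may be shared. AA467197 encodes a small mitochondrial protein induced in activated myeloid cells. In B6 it went from 5.49, 4.55 and 4.61 to 11.02, 10.94 and 10.84, and in NOD from 4.54, 4.04 and 4.16 to 6.81, 6.14 and 6.20. It rose in both strains, by 6.05 and 2.14, which leaves an interaction of -3.91 ± 0.40 (adjusted p = 2.11e-06). The zinc finger gene Zfp872 stood at 4.37, 4.51 and 4.58 under PBS and 8.37, 7.69 and 8.24 after CpG in B6, and at 4.29, 3.99 and 3.96 under PBS and 4.11, 3.86 and 4.21 after CpG in NOD. It rose in B6 alone by the test, with an interaction of -3.63 ± 0.32 (adjusted p = 3.02e-07). Zfp872 in the other 3 groups and AA467197 under PBS in both strains also lay below the array medians. The sizes of their differences therefore rest on low signals too. These 3 genes had an interaction of similar size in CD8+ cDC, at -3.99, -4.38 and -3.42.

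Below 0, NK cell markers gave the most called members of the 46 gene lists. Of 34 listed NK cell markers 29 were on the array and 24 passed the filter, and 16 of these were called below 0 and 0 above, with a median of -1.82 against 0.05 over all genes. Part of the markers had a way into the test only through their signal in B6 after CpG: 14, 19 and 16 of the 29 lay below the array median on all arrays of B6 under PBS, NOD under PBS and NOD after CpG, against 2 in B6 after CpG. The count and median of the tested markers therefore describe them and give no support. Without the filter the count was 19 of 29 with a median of -1.69, and with a stricter filter, asking for signal on 12 of 24 arrays, 10 markers remained tested, 3 were called and the median was -0.65. Of 14 tested cytotoxic effector genes 8 were called below 0 and 0 above, with a median of -1.29, and of 13 tested T cell markers 5 below 0 and 0 above, with a median of -0.53. Without the filter 8 of 21 cytotoxic genes were called, with a median of -0.40. For T cell markers it was 4 of 18, with a median of -0.24. The stricter filter left 5 of 12 cytotoxic genes and 2 of 8 T cell markers called. Fasl, Ifng, Cd28, Cd247 and Zap70 lay below the array median on all arrays of each CD11b+ group except B6 after CpG. The counts and medians of both lists therefore describe the tested members and give no support either. Over all genes 1.98% were called below 0 and 2.4% above. The medians of the CpG responses for NK markers were 2.04 in B6 and 0.24 in NOD.

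Ifng, the gene of interferon gamma, read 5.17, 5.21 and 5.10 under PBS and 8.88, 9.70 and 8.32 after CpG in B6. In NOD it read 4.71, 5.05 and 5.12 under PBS and 5.21, 5.61 and 5.37 after CpG. The rise of 3.81 in B6 was not matched in NOD (0.44, adjusted p = 0.218), and the interaction was -3.37 ± 0.32 (adjusted p = 5.23e-07). Gzmb and Prf1 encode granzyme B and perforin, the proteins with which killer cells lyse targets. Gzmb rose from 5.13, 6.03 and 5.23 to 11.83, 12.37 and 11.68 in B6 and from 5.06, 4.54 and 4.80 to 8.08, 8.40 and 8.18 in NOD. The NOD arrays after CpG lay above every PBS array and below every B6 array after CpG, and the interaction was -3.08 ± 0.41 (adjusted p = 6.96e-05). Prf1 rose from 6.55, 6.95 and 6.35 to 10.30, 11.33 and 10.04 in B6 and from 6.15, 6.02 and 6.25 to 7.06, 7.02 and 6.91 in NOD, with an interaction of -3.08 ± 0.32 (adjusted p = 2.02e-06).

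Receptors of NK cells rose in B6, and most of those described here had no called change in NOD. Klrb1c, which encodes the antigen NK1.1 in B6 mice, read 4.52, 5.19 and 4.55 under PBS and 7.63, 9.10 and 7.80 after CpG in B6, and 3.64, 3.49 and 3.54 under PBS and 3.59, 3.78 and 3.63 after CpG in NOD. Its NOD values lay below all B6 values in both conditions, and the interaction was -3.31 ± 0.40 (adjusted p = 1.93e-05). Ncr1, the activating receptor NKp46, rose from 6.13, 6.78 and 6.12 to 9.92, 10.49 and 9.33 in B6. In NOD it rose too, from 4.15, 4.39 and 4.39 to 4.92, 5.81 and 6.06, and stayed below the B6 arrays under PBS. Its interaction was -2.28 ± 0.38 (adjusted p = 0.00072). Thy1, a surface glycoprotein of T and NK cells, had an interaction of -3.01 ± 0.35 (adjusted p = 1.57e-05), the death ligand gene Fasl one of -2.89 ± 0.29 (adjusted p = 2.02e-06) and the integrin gene Itga2, which encodes the NK marker CD49b, one of -2.23 ± 0.29 (adjusted p = 4.85e-05). The interactions of Klra8, Klra3, Klrb1a, Klre1 and Klrc1 lay between -2.55 and -2.49, and none of these genes had a called change in NOD. The Klra and Klrb1 genes are families of near-identical copies that differ between mouse strains, so the assignment of a probe to 1 gene is uncertain there, and NOD variants under the probes were not tested.

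Not every gene of these lists behaved alike. Gzma, granzyme A, rose by 3.71 in B6 and by 3.32 in NOD, and its interaction did not pass (-0.40, adjusted p = 0.751). Klrk1, the receptor NKG2D, rose by 1.81 and 1.05 (interaction -0.76, adjusted p = 0.0925). Klrd1, the CD94 chain, read 10.72, 10.79 and 10.56 under PBS in B6 and 10.71, 10.98 and 10.63 in NOD, and its interaction did not pass (adjusted p = 0.997). The T cell receptor component Cd3e lay between 5.36 and 6.00 on the PBS arrays of both strains and between 5.59 and 6.04 after CpG, and its interaction did not pass (0.23, adjusted p = 0.686).

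The replicates of B6 after CpG were not alike for these genes. Replicate 2 held the highest value of the 3 for 16 of the 16 called NK markers and 8 of the 8 called cytotoxic genes. Over all tested genes it was the highest for 36.7%, and over the 193 genes below 0 outside the NK, cytotoxic and T cell lists for 52.3%. Without this array 14 NK markers and 7 cytotoxic genes were called below 0. Leaving out another single CD11b+ array gave 14 to 16 NK markers and 7 or 8 cytotoxic genes. The median interaction of the NK markers was -1.48 without replicate 2 of B6 after CpG, against -1.82 with all arrays. It lay between -2.11 and -1.72 without any other single CD11b+ array. A count at a threshold cannot show the part of replicate 2 in these interactions, and that part was not tested. Among genes above 0, replicate 3 held the highest value for 69.3% of them, against 36.1% of all genes.

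A further set of genes below 0 encodes cytokines, their receptors and regulators of dendritic cell maturation. Tnfrsf9, the co-stimulatory receptor 4-1BB, had 6.11, 6.06 and 5.96 under PBS and 8.42, 8.59 and 8.18 after CpG in B6. Its NOD values were 5.76, 5.86 and 5.68 under PBS and 6.17, 6.22 and 6.16 after CpG. The gene rose in both strains, by 2.35 and 0.41, and its interaction was -1.94 ± 0.18 (adjusted p = 3.68e-07). Il2ra, the alpha chain of the interleukin-2 receptor, went from 5.34, 4.93 and 5.00 to 9.93, 9.86 and 9.80 in B6 and from 5.06, 4.21 and 5.20 to 8.32, 7.91 and 7.84 in NOD. The groups after CpG did not overlap, and the interaction was -1.58 ± 0.33 (adjusted p = 0.00603). Il6, a cytokine of the acute response, rose by 4.80 in B6 and by 3.42 in NOD (interaction -1.39 ± 0.30, adjusted p = 0.00757). Il1rn, the antagonist of the interleukin-1 receptor, had an interaction of -1.34 ± 0.26 (adjusted p = 0.00338).

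Cd86, which encodes a ligand of CD28 on T cells, started higher in NOD and ended lower. In B6 it read 9.11, 9.07 and 8.81 under PBS and 10.77, 10.62 and 10.68 after CpG, and in NOD 9.70, 9.81 and 9.53 under PBS and 10.54, 10.34 and 9.89 after CpG. Both strain differences were called, 0.68 under PBS and -0.43 after CpG, and the interaction was -1.12 ± 0.18 (adjusted p = 0.000623). Cd200, an inhibitory surface protein, rose by 3.49 in B6 and 2.06 in NOD (interaction -1.43 ± 0.28, adjusted p = 0.0034). Of the 22 tested maturation and co-stimulation genes 3 were called below 0 (1.98% of all genes), and the other 19 did not pass. Ccr7, the receptor that guides mature dendritic cells to T cell zones, rose by 2.57 and 2.52, with an interaction of -0.05 ± 0.28 (adjusted p = 0.953), and Cd83 rose by 1.08 and 1.21 (interaction 0.13 ± 0.14, adjusted p = 0.692).

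Stat4, a transcription factor downstream of interleukin-12, rose by 2.39 in B6, and its change of 0.66 in NOD did not pass (adjusted p = 0.102). Its interaction was -1.73 ± 0.38 (adjusted p = 0.00846). Receptor genes through which lymphocytes sense cytokines were split: of 22 tested, 6 were called below 0 and 2 above, with a median of 0.00. Over all genes 1.98% were called below 0 and 2.4% above. Il2rb (-2.08 ± 0.45) and Il18rap (-2.08 ± 0.25), both also receptors of NK cells, were among those below, and Il6ra (1.44 ± 0.21, adjusted p = 0.000215), the receptor of interleukin-6, was above. The count of 8 was 5 without replicate 2 of B6 after CpG, without replicate 3 of NOD under PBS, replicate 2 of NOD after CpG or replicate 3 of NOD after CpG. Of 21 tested genes of apoptosis and necroptosis 4 were called below 0 (1.98% of all genes) and 0 above (2.4%). They were Fasl, the survival factor Bcl2 (-1.55 ± 0.33), the killer protein gene Bcl2l11 (-1.38 ± 0.22, adjusted p = 0.000552) and Bcl2l14 (-1.17 ± 0.26). Among these, Bcl2l11 rose in both strains, by 2.61 and 1.23, on arrays at 9.62, 9.81 and 9.76 in B6 and 8.78, 8.48 and 8.16 in NOD.

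**Figure D3:**
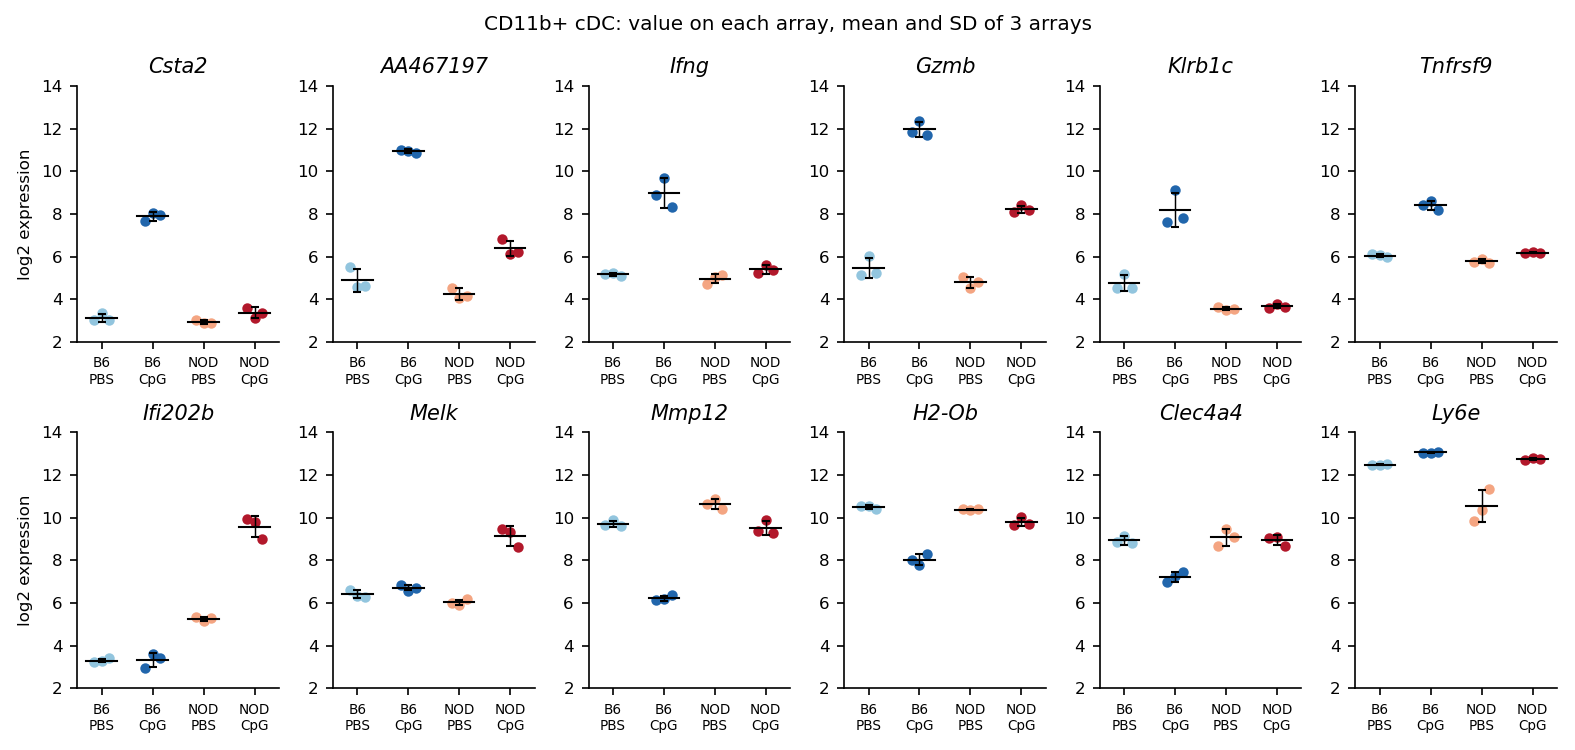
Log2 expression of 12 genes on each CD11b+ cDC array (points), with the mean and SD of the 3 arrays of a group (bars), all on the same vertical scale. The upper row holds genes with an interaction below 0, in which the B6 arrays after CpG stand highest, and the lower row genes above 0, in which Ifi202b and Melk stand highest in NOD after CpG, Mmp12, H2-Ob and Clec4a4 stand lowest in B6 after CpG, and Ly6e stands lowest in NOD under PBS.

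Ifi202b, an Ifi200 family gene that encodes an inhibitory DNA-binding protein, had the interaction farthest above 0. In B6 it stood at 3.24, 3.26 and 3.41 under PBS and 2.98, 3.60 and 3.43 after CpG, low in both. In NOD it stood at 5.35, 5.14 and 5.29 under PBS and 9.94, 9.79 and 9.01 after CpG, above all B6 arrays in both conditions. The interaction was 4.29 ± 0.32 (adjusted p = 2.06e-08), and the strain difference after CpG was 6.24. Outside NOD after CpG its signal lay below the array medians of 5.79 to 5.87. The size of this interaction and its rank therefore rest on low signals, as for Csta2. Of 13 tested genes of the Ifi200 family and of nucleic acid sensors, 4 were called above 0 and 0 below, with a median of 0.37. Over all genes 2.4% were called above 0 and 1.98% below.

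The other 3 called members are Ifi208, Ifi207 and Ifi206, all on chromosome 1, as Ifi202b is. Ifi208 rose in NOD from 5.03, 4.88 and 4.85 to 7.87, 8.08 and 7.45, and stood at 4.97, 4.93 and 5.68 under PBS and 5.63, 6.30 and 5.59 after CpG in B6. Only in NOD was its change called, and the interaction was 2.23 ± 0.39 (adjusted p = 0.00134). Under PBS Ifi208 lay below the array medians in both strains, so the size of this difference rests on low signals too. Ifi207 went from 9.07, 9.14 and 8.88 to 10.69, 10.76 and 10.79 in B6 and from 7.44, 8.05 and 7.95 to 10.64, 10.49 and 10.38 in NOD. It started lower in NOD by the test (-1.22) and did not differ by it after CpG (-0.24, adjusted p = 0.19), with an interaction of 0.97 ± 0.18 (adjusted p = 0.00252). Ifi206 had an interaction of 1.46 ± 0.41 (adjusted p = 0.0437), and this call ended under 12 of 25 alternatives, with an adjusted p of up to 0.13. Among them was each fit that left out 1 array of B6 under PBS, replicate 1 or 3 of B6 after CpG, replicate 1 or 2 of NOD under PBS or replicate 1 or 2 of NOD after CpG. Ifi203, Ifi209 and the DNA sensor gene Aim2 did not pass (interactions 0.25, 0.37 and 0.27).

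The 250 bases before the start of these 4 genes are shown because they respond to CpG in unlike ways in the strains and because 2 of them are almost the same sequence. They come from RefSeq (GRCm38.p6), the C57BL/6J reference, so they hold no NOD sequence. Capitals mark matches, on either strand, to the ISRE core (GAAA, any 2 bases, GAAA), bound by interferon-activated factors, or to the GAS motif TTCNNNGAA, bound by STAT dimers. The stretches lie on the minus strand for Ifi202b (chr1:173982845-173983094), Ifi206 (chr1:173491319-173491568) and Ifi207 (chr1:173741810-173742059), and on the plus strand for Ifi208 (chr1:173673415-173673664), each written 5′ to 3′ toward the gene.
Ifi202b: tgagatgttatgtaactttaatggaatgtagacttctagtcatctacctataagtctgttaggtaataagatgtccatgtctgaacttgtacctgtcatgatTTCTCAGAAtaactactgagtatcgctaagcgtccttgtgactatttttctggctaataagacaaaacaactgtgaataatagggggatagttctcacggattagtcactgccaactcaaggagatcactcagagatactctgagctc
Ifi206: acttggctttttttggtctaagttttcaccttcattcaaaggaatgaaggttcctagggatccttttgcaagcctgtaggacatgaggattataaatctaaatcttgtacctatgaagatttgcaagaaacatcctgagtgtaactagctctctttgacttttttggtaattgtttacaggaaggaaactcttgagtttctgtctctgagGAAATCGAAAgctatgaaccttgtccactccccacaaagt
Ifi207: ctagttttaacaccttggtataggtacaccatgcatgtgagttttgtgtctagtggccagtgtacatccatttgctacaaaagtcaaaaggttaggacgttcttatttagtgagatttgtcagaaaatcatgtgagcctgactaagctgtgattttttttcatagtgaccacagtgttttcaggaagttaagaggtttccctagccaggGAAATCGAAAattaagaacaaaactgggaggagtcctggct
Ifi208: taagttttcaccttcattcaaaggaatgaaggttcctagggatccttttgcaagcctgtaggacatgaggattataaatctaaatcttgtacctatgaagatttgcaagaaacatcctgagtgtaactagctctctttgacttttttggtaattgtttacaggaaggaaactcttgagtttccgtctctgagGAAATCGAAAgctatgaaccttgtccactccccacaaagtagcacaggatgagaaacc

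The ISRE core began 40 bases before the start in Ifi206, 41 in Ifi207 and 58 in Ifi208, and no match to it lay in the stretch of Ifi202b, whose GAS match began 148 bases before the start. Shifted by 18 bases, Ifi206 and Ifi208 matched at 231 of 232 bases, and whether their probes are shared was not tested. The next closest pair, Ifi202b and Ifi206, matched at 40.1%. A single window was listed for 7223 of the 11228 tested genes, and there the ISRE core lay in 2.84%, in 6.41% of 156 genes above 0, in 3.05% of 131 below 0 and in 32.0% of 25 type I interferon-stimulated genes. The AP-1 site TGANTCA lay in 4.15%, 8.97%, 5.34% and 28.0% of the same sets. The kB site (GGG, any 2 bases, TTTCC) lay in 1.32% of all windows, 2.56% above 0 and 3.05% below 0. That is 4 windows on each side, with that of Il6 among those below 0. The GAS motif lay in 6.27% of all, 7.69% above 0 and 6.11% below 0. The ISRE core can overlap the ETS-IRF motif (GGAA, any 2 bases, GAAA), which lay in 2.22% of all. These matches describe letters in a window and show no binding.

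Gzmb and Il6 are shown from below 0 for comparison, the former on the minus strand of chr14:56262335-56262584 and the latter on the plus strand of chr5:30012864-30013113. Capitals mark the AP-1 site in both and the kB site in Il6, which begin 58 bases before the start in Gzmb and 249 (AP-1) and 44 (kB) bases before it in Il6.
Gzmb: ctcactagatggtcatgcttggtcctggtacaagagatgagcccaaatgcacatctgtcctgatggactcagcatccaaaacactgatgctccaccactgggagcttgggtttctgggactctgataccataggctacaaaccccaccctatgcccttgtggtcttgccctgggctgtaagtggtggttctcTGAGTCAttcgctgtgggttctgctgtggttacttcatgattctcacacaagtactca
Il6: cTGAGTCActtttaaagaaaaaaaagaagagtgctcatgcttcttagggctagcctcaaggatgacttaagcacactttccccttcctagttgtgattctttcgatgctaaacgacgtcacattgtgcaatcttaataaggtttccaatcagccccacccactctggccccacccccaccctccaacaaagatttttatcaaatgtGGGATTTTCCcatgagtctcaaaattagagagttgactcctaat

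Interferon-induced genes as a whole rose in both strains. All 41 tested (of 42 on the array) type I interferon-stimulated antiviral genes rose in B6, where 15.9% of all genes did, and all 41 rose in NOD, where 9.7% did, with medians of 2.29 and 2.66. In the interaction 2 were called above 0 and 1 below, where 2.4% and 1.98% of all genes were, with a median of 0.21. Oasl2, a 2′-5′ oligoadenylate synthetase-like gene, went from 8.16, 8.35 and 8.06 to 10.78, 10.66 and 10.79 in B6 and from 7.04, 6.88 and 7.20 to 10.71, 10.64 and 10.51 in NOD. It was lower in NOD under PBS (-1.15) and reached the same range after CpG (-0.12, adjusted p = 0.619), which gives an interaction of 1.02 ± 0.22 (adjusted p = 0.00814). Slfn5 showed the same order, with a strain difference of -0.85 under PBS and 0.01 after CpG (interaction 0.86 ± 0.19, adjusted p = 0.00983). Trim25, a ubiquitin ligase of RNA sensing, had an interaction of -0.70 ± 0.16 (adjusted p = 0.0111).

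Several antiviral genes with a large rise in both strains did not pass. Rsad2 (viperin) rose by 4.82 in B6 and 4.85 in NOD (interaction 0.04 ± 0.35, adjusted p = 0.974), and Ifit1 by 3.87 and 4.26 (interaction 0.39 ± 0.32, adjusted p = 0.578). Cxcl10, a chemokine induced by interferons, rose by 4.82 and 5.08, with an interaction of 0.27 ± 0.39 (adjusted p = 0.788). Tlr9, the receptor of CpG, rose by 1.11 and 1.09 and did not differ between strains under PBS by the test, and its interaction was -0.02 ± 0.16 (adjusted p = 0.959). Of the 16 tested genes of MHC class I loading 0 were called in the interaction by limma, and of 20 ribosomal protein genes 0. Over all genes 4.38% were, so 0 in lists of this size lies near that share. In each list 5 genes had an unadjusted p under 0.05, a level whose share over all genes is not given here.

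In the GTPase and Schlafen families single members stood apart. All 8 tested interferon-inducible GTPase genes rose in both strains. In the interaction 2 were called below 0 and 0 above, against 1.98% and 2.4% of all genes. Gm4951 rose from 5.37, 5.15 and 5.15 to 9.37, 9.21 and 9.35 in B6 and from 4.50, 4.55 and 4.45 to 7.17, 7.28 and 6.98 in NOD (interaction -1.44 ± 0.18, adjusted p = 4.75e-05), and Gbp3, a guanylate-binding protein, had an interaction of -1.12 ± 0.25 (adjusted p = 0.00885), while its relatives Gbp4 and Gbp9 had 0.03 and 0.09 and did not pass. In the Schlafen family Slfn4 rose from 4.39, 4.75 and 4.44 to 10.66, 10.92 and 10.63 in B6 and from 4.65, 4.56 and 4.71 to 9.51, 9.28 and 8.42 in NOD. Its interaction of -1.78 ± 0.36 (adjusted p = 0.00458) was opposite in sign to that of Slfn5, and the other 6 tested members did not pass, among them Slfn1, Slfn2 and Slfn8 (0.07, 0.15 and 0.39). Of the 8 tested members 2 were called, against 4.38% of all genes. An unadjusted p under 0.05 was found for 4, a level whose share over all genes is not given here.

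Several genes rose more in NOD than in B6. Melk, a kinase known from dividing cells, read 6.63, 6.32 and 6.30 under PBS and 6.83, 6.59 and 6.71 after CpG in B6, and 6.02, 5.91 and 6.17 under PBS and 9.48, 9.32 and 8.63 after CpG in NOD. The NOD arrays after CpG stood apart from all others, with an interaction of 2.82 ± 0.23 (adjusted p = 7.11e-08). Of 43 tested cell cycle and replication genes 1 was called in the interaction, against 4.38% of all genes. Pcna, the replication clamp, had 0.04 (adjusted p = 0.957). AY761185, annotated among the defensin genes, went from 4.31, 4.36 and 4.48 to 5.38, 5.36 and 5.45 in B6 and from 4.59, 4.97 and 5.14 to 8.22, 8.16 and 7.98 in NOD (interaction 2.21 ± 0.26, adjusted p = 1.92e-05). Outside NOD after CpG AY761185 lay below the array medians, so the size of this difference rests on low signals. Ly6e, an interferon-induced surface protein, was high on all B6 arrays, 12.49, 12.48 and 12.51 under PBS and 13.04, 13.05 and 13.10 after CpG, and rose in NOD from 9.87, 10.38 and 11.35 to 12.71, 12.81 and 12.75. Its interaction was 1.65 ± 0.27 (adjusted p = 0.000676), with the 3 NOD arrays under PBS spread over more than 1 log2 unit.

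Genes that mark resting CD11b+ cDC were among those above 0, as were markers of other cell types. Of 24 tested CD11b+ cDC markers 17 fell in B6, where 23% of all genes did, and 9 fell in NOD, where 5.73% did. In the interaction 4 were called above 0, where 2.4% of all genes were, and 0 below, with a median of 0.60. Of 23 tested CD8+ cDC markers 4 were called above 0 and 1 below, of 14 pan-cDC markers 4 above and 1 below, and of 12 monocyte markers 2 above and 0 below. The 5 calls of pan-cDC markers were not stable. They were 3 without the filter or with median centring and 4 without replicate 3 of B6 after CpG. Leaving out any other single CD11b+ array left 1 or 2. Clec4a4 fell from 8.86, 9.16 and 8.80 to 6.98, 7.26 and 7.46 in B6. In NOD it read 8.67, 9.46 and 9.10 under PBS and 9.07, 9.09 and 8.68 after CpG, ranges that overlap. The interaction was 1.58 ± 0.31 (adjusted p = 0.00387). Its relative Clec4a2, an inhibitory lectin, fell by 2.15 in B6 and 0.52 in NOD (interaction 1.63 ± 0.24, adjusted p = 0.000277). Cd300a, an inhibitory receptor, was also called (1.02 ± 0.22, adjusted p = 0.00814). Without replicate 1 or 2 of B6 after CpG 3 of the CD11b+ cDC markers were called. The same count came without replicate 1 of B6 under PBS, replicate 1 of NOD under PBS or replicate 2 of NOD after CpG. A fit on the 12 CD11b+ arrays alone called 11 and one with the replicate number as a fixed block 7.

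Other markers fell in both strains with no called interaction. Itgam, which encodes CD11b, lay between 8.99 and 9.03 under PBS and at 6.61, 7.50 and 6.94 after CpG in B6. It went from 8.54, 8.93 and 8.89 to 7.07, 7.23 and 7.82 in NOD, with an interaction of 0.58 ± 0.34 that did not pass (adjusted p = 0.39). Cd209a, a DC-SIGN homologue, fell from 10.07, 9.89 and 10.02 to 5.02, 4.34 and 5.68 in B6 and from 9.91, 10.56 and 9.87 to 5.39, 6.38 and 6.86 in NOD (interaction 1.08 ± 0.52, adjusted p = 0.284). Itgax, which encodes the sorting marker CD11c, fell in B6 by 1.29 and read 9.99, 9.92 and 10.11 after CpG, against 10.78, 10.84 and 10.92 in NOD. Its interaction of 0.96 ± 0.26 (adjusted p = 0.0343) lost its call in 10 of 25 alternatives, all of them fits that left out 1 array, with an adjusted p of up to 0.0787. The 2 arrays that could be left out with the call kept were replicate 3 of B6 after CpG and replicate 1 of NOD after CpG.

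Genes of MHC class II presentation were also above 0. Of 14 tested genes (15 on the array) 7 were called above 0, where 2.4% of all genes were, and 0 below, with a median of 0.47. B cells express class II genes too. Of 19 tested B cell and plasma cell markers 5 were higher and 0 lower in NOD under PBS, where 2.41% of all genes were higher. After CpG 9 were higher and 2 lower in NOD, against 13.9% and 9.22% of all genes. Their summed signal ran from 3410 to 4014 in B6 and from 4159 to 8393 in NOD under PBS, and from 2914 to 3824 and from 3683 to 7511 after CpG. The part of such cells in the class II values was not tested. H2-Ob, a chain of H2-O that restrains peptide loading, read 10.56, 10.55 and 10.41 under PBS and 8.04, 7.77 and 8.31 after CpG in B6. The NOD values were 10.40, 10.35 and 10.42 under PBS and 9.65, 10.02 and 9.73 after CpG. It fell in both strains, by 2.47 and 0.59, and the interaction was 1.88 ± 0.23 (adjusted p = 2.34e-05). The partner chain gene H2-Oa had 1.24 ± 0.20 (adjusted p = 0.000676) and H2-DMa, a chain of the peptide editor, 1.07 ± 0.22 (adjusted p = 0.00619). The class II chain H2-Aa (0.32, adjusted p = 0.0737) and the invariant chain Cd74 (0.11, adjusted p = 0.371) did not pass. The count was 4 without replicate 1 of B6 after CpG, without replicate 2 of NOD after CpG or with eBayes without the trend.

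**Figure D4:**
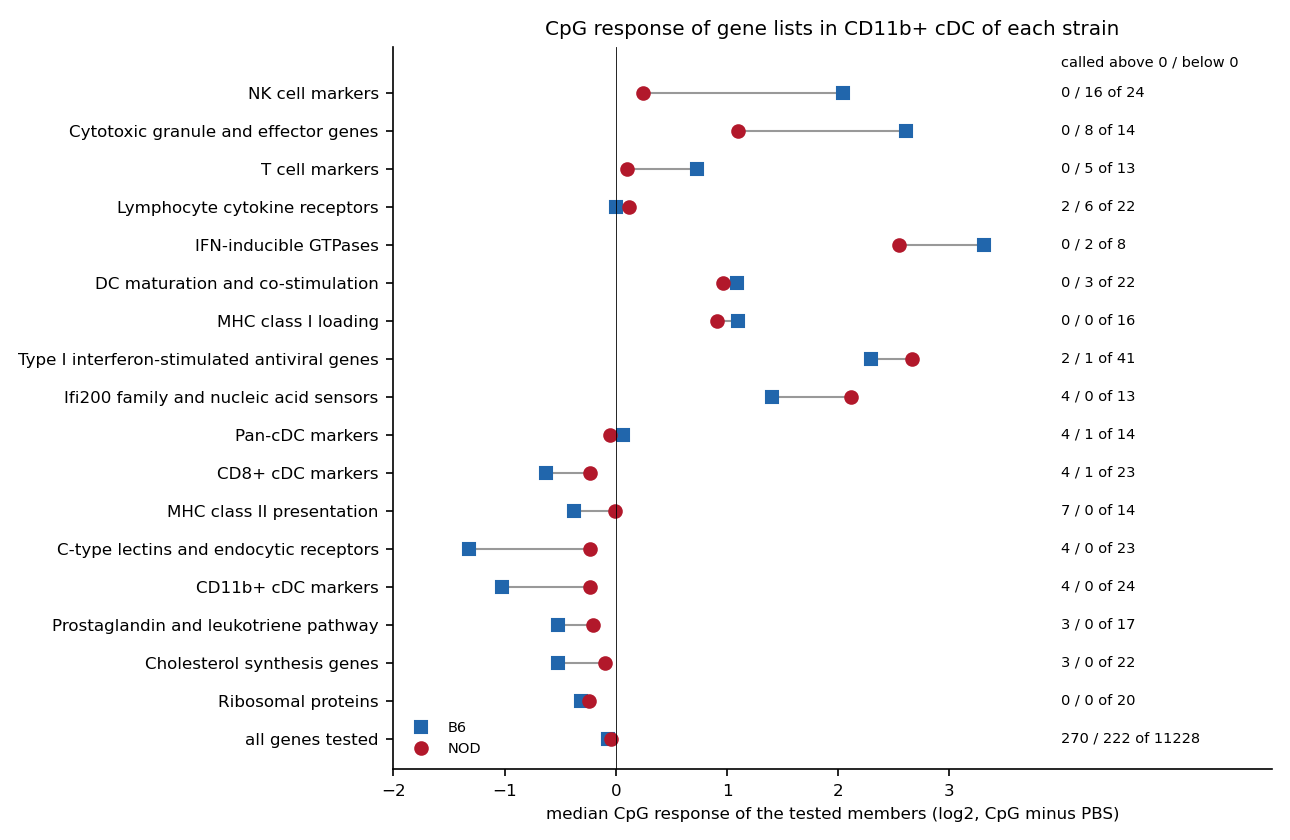
Median CpG response (horizontal axis, log2 CpG minus PBS) of the tested members of the gene lists shown and of all tested genes in B6 (squares) and NOD (circles) CD11b+ cDC, with the number of members called above 0 and below 0 in the interaction at the right. NK markers have medians of 2.04 in B6 and 0.24 in NOD, CD11b+ cDC markers -1.02 and -0.23, and type I interferon-stimulated genes 2.29 and 2.66.

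Other called genes above 0 fell in B6 and less in NOD. Mmp12, a macrophage elastase, went from 9.64, 9.88 and 9.62 to 6.14, 6.18 and 6.36 in B6 and from 10.66, 10.90 and 10.40 to 9.40, 9.87 and 9.29 in NOD. It was higher in NOD under PBS (0.94) and more so after CpG (3.29), and the interaction was 2.36 ± 0.28 (adjusted p = 1.57e-05). Gpr34, a lysophospholipid receptor, went from 7.76, 7.46 and 7.42 to 5.08, 5.48 and 5.24 in B6 and from 7.88, 8.49 and 7.99 to 7.56, 7.99 and 7.58 in NOD (interaction 1.87 ± 0.27, adjusted p = 0.000168). Rgs18, a regulator of G protein signalling, had 1.79 ± 0.32 (adjusted p = 0.00179) and Map2k6, a kinase of the p38 pathway, 1.38 ± 0.22 (adjusted p = 0.000626).

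Hpgd, the enzyme that degrades prostaglandins, followed another order. It stood at 9.44, 9.59 and 9.36 under PBS in B6 and fell to 6.20, 6.86 and 6.71. In NOD it already stood at 6.05, 6.56 and 6.11 under PBS and fell to 5.47, 5.58 and 5.68, below the array median on each array. The interaction of 2.21 ± 0.31 (adjusted p = 0.000122) therefore goes with a strain difference of -3.23 under PBS, and its size rests on low signals in NOD. Clec12a, an inhibitory lectin, was likewise lower in NOD under PBS (-1.51) and did not differ by the test after CpG (-0.05, adjusted p = 0.895), with an interaction of 1.46 ± 0.30 (adjusted p = 0.00603). Hpgd is also one of the red pulp macrophage markers, whose summed signal over 20 markers ran from 5386 to 8857 in B6 under PBS and from 3472 to 3928 in NOD under PBS. After CpG it ran from 4597 to 7366 in B6 and from 4795 to 5296 in NOD, with Cd163, Vsig4 and Marco below the array median on all arrays of all 4 groups. The part of such cells in the values of Hpgd was not tested.

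Among smaller groups, Nlrc4, an inflammasome receptor, was called above 0 (1.30 ± 0.25, adjusted p = 0.00298), and Il1b, whose product inflammasomes release, had an interaction of 0.01 ± 0.35 (adjusted p = 0.994). Scarb1, the receptor of high-density lipoprotein, had 1.26 ± 0.29 (adjusted p = 0.0131) and the glucose transporter gene Slc2a3 1.03 ± 0.21 (adjusted p = 0.00439). Cfp, the complement factor properdin, had 1.18 ± 0.27 (adjusted p = 0.011). Of 22 tested cholesterol synthesis genes 14 fell in B6 (23% of all genes) and 3 in NOD (5.73% of all genes), and 3 were called above 0 in the interaction (2.4% of all genes), with a median of 0.33. Each of those 3 calls ended under at least 5 alternatives. By limma 0 of 26 immediate-early genes, 0 of 29 oxidative phosphorylation genes and 0 of 19 B cell and plasma cell genes were called. Over all genes 4.38% were, so 0 in lists of this size lies near that share. An unadjusted p under 0.05 was found for 4, 2 and 1 of them, a level whose share over all genes is not given here.

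In all, 12 genes were called in the interaction with called responses in opposite directions in the 2 strains, 5 that rose in NOD and fell in B6, and 7 the other way. Inpp4b, a phosphoinositide phosphatase, fell from 6.47, 6.53 and 6.67 to 5.61, 5.07 and 5.76 in B6 and rose from 6.79, 7.19 and 6.98 to 8.25, 8.43 and 8.17 in NOD. After CpG the NOD arrays stood above all others, and the interaction was 2.38 ± 0.25 (adjusted p = 3.28e-06). H2-M2, a nonclassical MHC class I gene, fell by 0.97 in B6 and rose by 0.76 in NOD (interaction 1.73 ± 0.29, adjusted p = 0.000729). Klrb1b, an inhibitory NK receptor, rose from 6.63, 6.79 and 6.04 to 7.51, 8.43 and 7.02 in B6 and fell from 7.55, 7.32 and 7.25 to 5.68, 6.23 and 6.01 in NOD, where it had been higher under PBS (0.88). Its interaction was -2.57 ± 0.34 (adjusted p = 6.96e-05).

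The CD8+ cDC of the same strains offer the closest comparison. There the interaction was called for 451 genes (4.02%; 1.74% above and 2.28% below 0). That count was 2071 without replicate 1 of NOD after CpG, and 255, 231, 277 and 257 without replicate 3 of B6 under PBS, replicate 2 of B6 after CpG, replicate 1 of NOD under PBS and replicate 3 of NOD after CpG, all of CD8+ cDC. Of the genes called in CD11b+ cDC 53 above 0 and 65 below 0 were also called there in the same direction and 0 in the opposite one. The difference of the interaction between the subsets was tested gene by gene and called for 35 genes (0.312%; 0.143% above and 0.169% below 0), of which 24 were also called in CD11b+ cDC. Of the 24 tested NK markers 5 were called in this difference, all with a lower value in CD11b+ cDC. Klrb1c had an interaction of -3.31 in CD11b+ and 0.16 in CD8+ cDC (adjusted p of the difference 0.00331), Ifng -3.37 and -0.23 (adjusted p = 0.00114) and Prf1 -3.08 and -0.47 (adjusted p = 0.00516). The median interaction of the tested NK markers was 0.09 in CD8+ cDC. Part of these markers had a way into the test only through B6 after CpG, as said above. The count of 5 and this median therefore describe the tested markers and give no support.

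Tnfrsf9 also differed between the subsets (-1.94 and -0.12, adjusted p = 0.000861), as did Mmp12 (2.36 and 0.44, adjusted p = 0.0307). Gbp3 was farther below 0 in CD8+ cDC (-1.12 and -3.11, adjusted p = 0.00667), and so was the transporter gene Abca17 (-1.39 and -3.33, adjusted p = 0.000485). Ifi202b (4.29 and 4.46), Csta2, AA467197 and Zfp872 lay close to the diagonal, and their differences did not pass (adjusted p from 0.968 to 0.986). The count of 35 was 10 with the filter of 12 of 24 arrays. Among CD11b+ arrays it was 21 without replicate 1 or without replicate 3 of B6 under PBS, and 19 without replicate 1 of B6 after CpG, without replicate 3 of NOD under PBS or without replicate 2 of NOD after CpG. Among CD8+ arrays it was 21 and 23 without replicate 1 and replicate 3 of B6 under PBS, 19 without replicate 2 of B6 after CpG and 22 without replicate 1 of NOD under PBS. It rose to 70 without replicate 1 of CpG-treated NOD CD8+ cDC and to 55 without replicate 3 of CpG-treated B6 CD11b+ cDC.

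**Figure D5:**
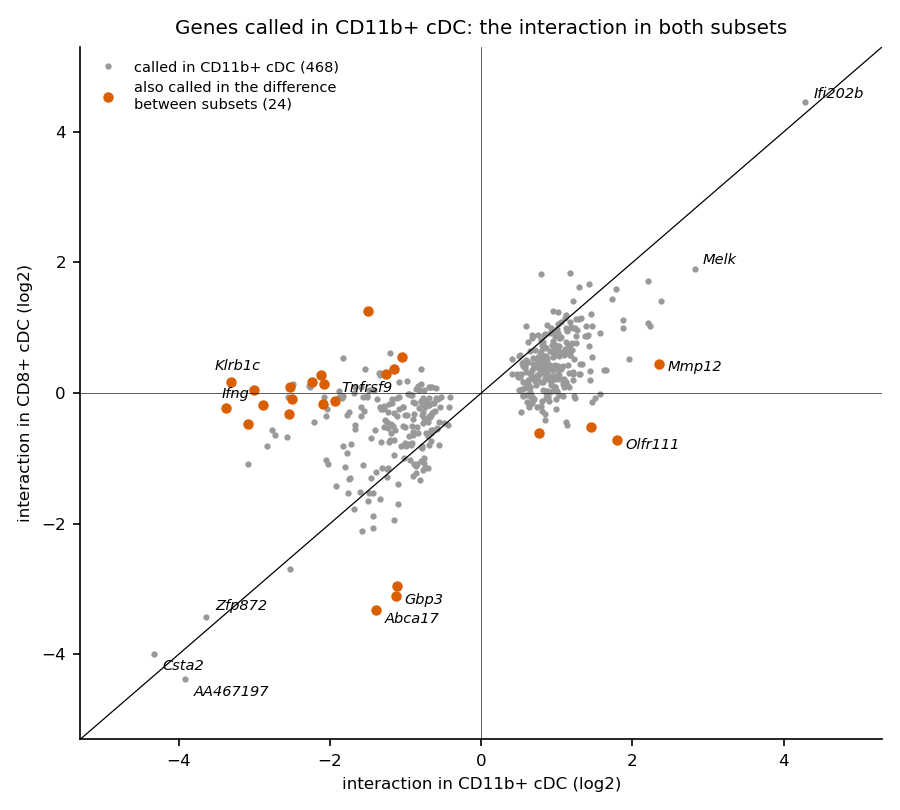
Interaction of the 492 genes called in CD11b+ cDC (horizontal axis, log2) against the same interaction in CD8+ cDC (vertical axis, log2), with the diagonal marking equal values; the 24 genes for which the difference between subsets was called are orange. Ifi202b, Csta2, AA467197 and Zfp872 lie near the diagonal, and Klrb1c and Ifng lie near 0 on the vertical axis.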

How the data were processed

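RNA from sorted CD11c+ spleen cells was amplified from 5 ng with a NuGEN whole-transcriptome kit, and 2.5 µg of the cDNA was labelled for the arrays, per the labels' protocols. The authors deposited log2 expression values for 35556 probe sets on 24 arrays, made with Partek by RMA, per the submitters' processing notes; a genome build and a version are not given in the sources used here. The labels name a Mouse Genome 430 array while the probe identifiers match the annotation of a whole-transcript array, so the array model is unsettled, and no detection calls were used. Array medians ran from 5.79 to 5.87, and the number of arrays, not a read depth, limits the precision. Of the probe sets 21789 had 1 gene symbol, 1621 several and 12146 none in the annotation table, and 21698 were matched to current symbols by gene ID. For the 999 genes with more than 1 probe set, the one with the highest mean was used, and a gene was tested when it lay above the array median on at least 3 of 24 arrays.

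A mean was fitted per group over all 8 groups of 3 with limma 3.58.1 in R 4.3.3 (16 residual degrees of freedom, eBayes with trend, two-sided), and p-values were adjusted by Benjamini-Hochberg within each of 7 contrasts, with calls at 0.05. The members and the 46 gene lists were chosen with earlier results of these data known. Genes were named by rank of the interaction and of the CpG responses, by opposite responses, by the difference between subsets, and from each list by up to 4 called and 2 uncalled members. Zbtb46, Gzma, Klrk1 and Cd3e were added from the marker lists after their values were seen. Alternatives changed the filter, the probe set rule, the scaling, the variance model, the arrays fitted and the replicate block, and left out each array in turn.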

Additional observations from a re-analysis of the deposited data

Results flagged for a closer look

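Each value here comes from a difference between groups under the same contrast, tested as an interaction. The CpG response differed between NOD and B6 for 492 genes in CD11b+ cDC, and this difference itself differed between CD11b+ and CD8+ cDC for 35 genes.

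In 12 genes called in the interaction the responses were called in opposite directions. The interactions of those that rose in NOD and fell in B6 were 2.38 for Inpp4b, 1.73 for H2-M2, 1.56 for AB124611, 1.01 for the noncoding RNA Mirt1 and 0.87 for Avpi1. Those that rose in B6 and fell in NOD were Klrb1b at -2.57, Olfr320 at -0.96, Specc1 at -0.79, Nabp1 at -0.70, the mitochondrial glycerol phosphate dehydrogenase gene Gpd2 at -0.69, Gfod1 at -0.68 and Grin3b at -0.66. The interaction calls of Mirt1, Olfr320, Gfod1, Gpd2 and Grin3b each ended under at least 1 alternative.

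The difference of the interaction between the subsets, CD11b+ minus CD8+, is given for the 10 genes farthest from 0 on each side. Above 0 it was 2.52 for the olfactory receptor gene Olfr111, 2.01 for Clec7a, the beta-glucan receptor dectin-1, 1.98 for Gbp3 and also 1.98 for Clec12a, 1.94 for Abca17, 1.92 for Mmp12, 1.83 for Ndrg2, 1.75 for Pdlim4, 1.72 for Dnajc12 and 1.63 for Zfp958. Below 0 it was -3.47 for Klrb1c, -3.14 for Ifng, -3.05 for Thy1, -2.76 for the adaptor gene Clnk, -2.70 for Fasl, -2.61 for Klra8 and for Prf1, and -2.40 for Itga2, Klra3 and the T cell kinase gene Prkcq. Of these 10, 8 belong to the lists of NK, cytotoxic or T cell genes, whose summed signal was, among the 4 groups of CD11b+ arrays, highest in B6 after CpG, and the part of such transcripts in these differences was not tested. Klrb1c, Klra8, Fasl and Ifng lay below the array median on all CD11b+ arrays outside that group. The number of list members here therefore gives no support.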

How the results depend on the processing

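Of the 121 named genes called in the interaction, 88 kept the call in every alternative run for them, 33 lost it in at least 1, and 0 of 230 named genes reversed. Array weights called more genes in each of these comparisons: 1239 in the interaction of CD11b+ cDC (492 in the chosen fit), 2623 in the NOD response (1732), 1046 in the strain difference under PBS (628), 2533 in the interaction of CD8+ cDC (451) and 233 in the difference between subsets (35). The weights reached no full convergence. Fitting only the 12 CD11b+ arrays called 945 in the interaction, 626 above and 319 below 0, of which 485 were among the 492. With the replicate number as a fixed block the count was 766 in CD11b+ and 728 in CD8+ cDC, and as a random block 687 in CD11b+ cDC. Of 18 same-numbered pairs of CD11b+ arrays 15 had a positive correlation of their deviations from the group means and 10 one over 0.1 (range -0.108 to 0.315, median 0.128). Since not every pair was over 0.1 and the labels tie no number to a shared mouse or day, the fit without the block was kept, and a shared set of arrays behind a number was not tested further. The filter of 12 of 24 arrays left 10 calls in the difference between subsets. Leaving out 1 array gave 297 to 524 calls in the interaction of CD11b+ cDC, 1139 to 1836 in the NOD response, 231 to 2071 in the interaction of CD8+ cDC and 19 to 70 in the difference between subsets. The counts of the B6 response and of the strain difference after CpG stayed within 1.5 times under each alternative run. The cause of these shifts was not tested. Genes whose probes lie at the low end of the signal have only weak support for a level, since no detection calls were used.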
